A study of Mus musculus with 7 samples.

Results

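The DNAJ family, also named HSP40, holds the J-domain cochaperones of the HSP70 chaperones. To learn how these genes were expressed in hSOD1G93A mice with a knockout of *Neat1*, 36 DNAJ genes were chosen by their gene symbols from the 55487 genes counted by RNA-seq in cervical spinal cord. They comprise 4 class A, 7 class B and 25 class C genes, all protein-coding. The genes of the endoplasmic reticulum (ER) *Dnajb9*, *Dnajb11* and *Dnajc3* were not among the 36 and were kept with the other J-domain genes. The groups were 4 *Neat1*-KO; hSOD1G93A mice and 3 *Neat1*-WT; hSOD1G93A mice, all 8 weeks of age, with 1 library per mouse. Every mouse of both groups carried the hSOD1G93A transgene, a human *SOD1* with a mutation of familial ALS, so that no comparison with mice free of the transgene was made here. The *Neat1*-KO allele, a knockout of a long non-coding RNA, was carried in the germline, and the mice came from parents heterozygous for it. The tissue was bulk spinal cord with all of its cell types. Libraries are named by the numbers in their labels, *Neat1*-KO replicates 1, 2, 3 and 4 and *Neat1*-WT replicates 2, 3 and 4.

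An HSP70 protein binds and releases an unfolded stretch of protein as it hydrolyses ATP. A J-domain protein brings the client to HSP70 and, through its J domain, stimulates that hydrolysis. Class A proteins carry a glycine- and phenylalanine-rich region and a zinc-finger region, class B proteins have the first but not the zinc finger, and class C proteins share little beyond the J domain and work at set places such as the mitochondrial import motor, the ER or the synaptic vesicle. Several class A and B genes are induced by heat through heat shock factor 1 (HSF1), together with *Hspa1a* and *Hspa1b*. In motor neurons, J-domain proteins are studied for their part in keeping misfolded proteins such as mutant SOD1 soluble.

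The libraries held between 19661878 and 26031517 counts. *Neat1*, the gene knocked out, stood at 5.09, 5.40, 5.52 and 4.04 CPM (counts scaled to the library total after TMM normalization) in the *Neat1*-KO libraries and at 86.2, 80.5 and 118 CPM in the *Neat1*-WT libraries, a log2 fold change of -4.25 (SE 0.15, adjusted p = 1.52e-08 by the quasi-likelihood test of edgeR), and each of the 7 libraries matched its genotype label. Some *Neat1* reads thus remained in every *Neat1*-KO library. *Xist* had at most 4 counts in any library. Markers of spinal neurons (summed 2886 to 3342 CPM over the libraries), astrocytes (3137 to 3941 CPM) and oligodendrocytes (28270 to 37030 CPM) were abundant. The summed level of 5 motor neuron markers (*Chat*, *Slc18a3*, *Slc5a7*, *Isl1* and *Mnx1*) was between 191.6 and 255.1 CPM in *Neat1*-KO and between 259.6 and 315.9 CPM in *Neat1*-WT mice, without overlap. Taken singly, each of the 5 markers overlapped between the genotypes. In bulk tissue, fewer cells of a type and less RNA per cell cannot be told apart.

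None of the 35 DNAJ genes that could be tested passed the threshold between the genotypes, which asks for an adjusted p below 0.1 together with a log2 fold change beyond 0.58 in either direction. Over all 18449 genes tested, 6 did, 0.0325% of them. DESeq2 and limma-voom called no DNAJ gene either. At an unadjusted p under 0.05, 2 DNAJ genes were lower in *Neat1*-KO mice, *Dnaja4* and *Dnaja1*, and none was higher. These were 2 of 35, where 2.4% of all genes tested were lower and 2.24% higher at that level. Without *Neat1*-KO replicate 2, *Neat1*-KO replicate 4 or *Neat1*-WT replicate 3 the count was 0, without *Neat1*-WT replicate 2 it was 1, and without *Neat1*-KO replicate 3 it was 4.

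The fitted log2 fold changes of the family, given throughout as *Neat1*-KO over *Neat1*-WT, ran from -0.23 for *Dnaja1* to 0.15 for *Dnajc8*. Of the 35 genes, 19 had a value below 0 and 16 above it, against 48.2% below 0 over all genes tested, and the median was -0.0091 against 0.0062. The 95% confidence interval lay inside the fold threshold on both sides for 34 of the 35, which was so for 12763 of all 18449 genes. The exception was *Dnajc25*, counted at 2.47, 1.69, 3.39 and 3.89 CPM in *Neat1*-KO and 2.67, 2.99 and 3.42 CPM in *Neat1*-WT libraries, whose interval ran from -0.66 to 0.51. A change of the size that the threshold asks for was therefore outside the interval of each of the other 34. Their spread within a genotype was small. The median coefficient of variation over the 35 genes was 7.0% in *Neat1*-KO and 6.2% in *Neat1*-WT libraries, against 11.8% and 9.7% over all genes. All genes were not matched to the DNAJ genes for level, here or for the intervals.

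**Figure D1:**
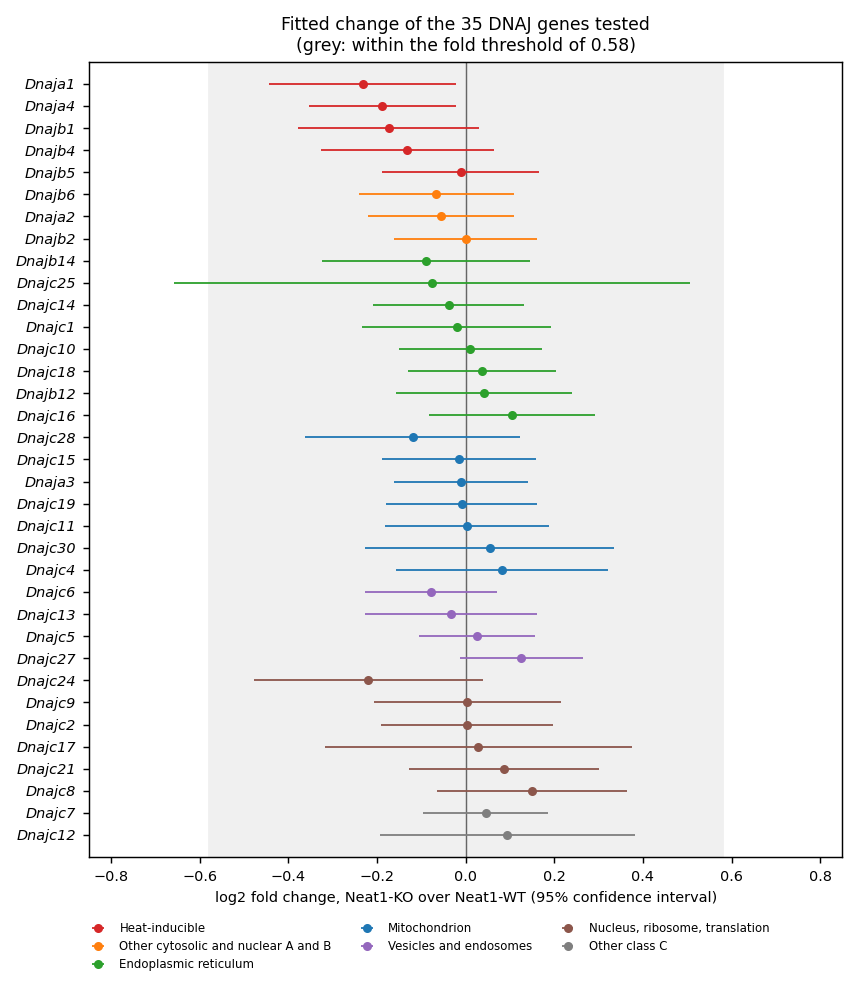
Fitted log2 fold change of each of the 35 DNAJ genes tested (points, *Neat1*-KO over *Neat1*-WT, edgeR) with its 95% confidence interval (lines), grouped by heat inducibility and site of action, against 0 and the fold threshold of 0.58 on either side (grey). The 5 heat-inducible genes lie left of 0, and every interval but that of *Dnajc25* stays within the grey area.

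By class, all 4 class A genes had a log2 fold change below 0 (median -0.12), as had 6 of 7 class B genes (median -0.066) and 9 of 24 class C genes (median 0.0071). Divided by heat inducibility instead, all 5 heat-inducible genes were below 0 (median -0.17), and the other 30 were spread about it, with 14 below and 16 above (median 0.0037). All 5 heat-inducible genes are of class A or B, so both divisions count them. Some of the class A and B values below 0 were close to it, with *Dnajb2* at -0.00012, *Dnaja3* at -0.0095 and *Dnajb5* at -0.011. *Dnajb12*, the class B gene above 0, was at 0.042. Both genes with an unadjusted p under 0.05 were class A and heat-inducible. The genes of a list share the same 7 libraries, so these counts are a description and carry no test.

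The 5 heat-inducible genes were *Dnaja1* and *Dnaja4* of class A and *Dnajb1*, *Dnajb4* and *Dnajb5* of class B. *Dnaja1* (ENSMUSG00000028410, mm10 chr4:40722150-40737149, plus strand) encodes a cytosolic partner of HSC70, the constitutive HSP70. In *Neat1*-KO replicates 1 to 4 it was counted at 248, 209, 279 and 233 CPM, and in *Neat1*-WT replicates 2 to 4 at 312, 284 and 258 CPM. *Neat1*-KO replicates 1, 2 and 4 lay below all *Neat1*-WT libraries, while *Neat1*-KO replicate 3 lay within their range. The mean was 242 ± 29.3 CPM (SD, n = 4) against 284 ± 27.2 CPM (SD, n = 3). The fit gave a log2 fold change of -0.23 (SE 0.10, 95% interval -0.44 to -0.022). The unadjusted p was 0.0330 and the adjusted p 0.992 in edgeR, and an exact two-sided permutation test of the genotype labels, which cannot go below 0.0286 with 4 and 3 libraries, gave p = 0.114.

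Reads that fit *Dnaja1* and a copy of it equally would not map uniquely and would be left out of both. The processed pseudogene *Gm15542* is 99.4% identical to it over 1194 bp and had between 179 and 274 counts where *Dnaja1* had between 4831 and 6893. *Gm15542* stood at 9.25, 8.51, 9.23 and 7.78 CPM in *Neat1*-KO and 12.4, 10.6 and 9.13 CPM in *Neat1*-WT libraries, a log2 fold change of -0.30 (unadjusted p = 0.0482). Its difference had the same sign as that of *Dnaja1*.

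*Dnaja4* (ENSMUSG00000032285, mm10 chr9:54698873-54716315, plus strand), a paralog of *Dnaja1* in the cytosol, was the only heat-inducible gene whose libraries did not overlap between the genotypes. It stood at 65.7, 56.9, 61.1 and 59.9 CPM in the *Neat1*-KO and at 67.6, 72.0 and 68.5 CPM in the *Neat1*-WT libraries. The *Neat1*-KO libraries were all below the *Neat1*-WT ones, the nearest pair being *Neat1*-KO replicate 1 and *Neat1*-WT replicate 2. The log2 fold change was -0.19 (SE 0.077, 95% interval -0.35 to -0.023), with an unadjusted p of 0.0290, an adjusted p of 0.992 and an exact permutation p of 0.0571. In the annotation, 44.1% of the exon bases of *Dnaja4* are shared with *Wdr61* on the opposite strand. *Wdr61* was counted at 49.4, 42.2, 46.3 and 41.9 CPM in *Neat1*-KO and 43.8, 48.6 and 48.0 CPM in *Neat1*-WT libraries, which overlapped, with a log2 fold change of -0.059 (unadjusted p = 0.506). The libraries were directional, but the strand setting of the counting is not given in the sources used here. Whether reads of the shared bases were assigned by strand is therefore not known.

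*Dnajb1* (ENSMUSG00000005483, mm10 chr8:83608193-83612653, plus strand) encodes the HSP40 protein for which the family is named, the heat-induced class B partner of HSP70. It was counted at 53.7, 49.0, 56.2 and 49.5 CPM in *Neat1*-KO and 60.2, 64.7 and 51.2 CPM in *Neat1*-WT libraries. *Neat1*-WT replicate 4 lay among the *Neat1*-KO libraries and the others above them. The log2 fold change was -0.17 (SE 0.094, 95% interval -0.38 to 0.030, unadjusted p = 0.0885, adjusted p = 0.992, exact permutation p = 0.143). It moved to -0.099 without *Neat1*-WT replicate 3 and to -0.27 without *Neat1*-WT replicate 4.

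*Dnajb4* (ENSMUSG00000028035, mm10 chr3:152178511-152210302, minus strand), another cytosolic class B gene, stood at 48.9, 44.99, 55.5 and 47.1 CPM in *Neat1*-KO and 57.6, 51.8 and 51.8 CPM in *Neat1*-WT libraries. *Neat1*-KO replicate 3 reached the range of the *Neat1*-WT libraries and the other *Neat1*-KO libraries were below it. Its log2 fold change was -0.13 (SE 0.090, 95% interval -0.33 to 0.063, unadjusted p = 0.168, adjusted p = 0.992, exact permutation p = 0.200), and -0.079 without *Neat1*-WT replicate 2.

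*Dnajb5* (ENSMUSG00000036052, mm10 chr4:42949814-42959425, plus strand) differed less than the others. It was counted at 32.9, 36.9, 34.8 and 33.3 CPM in *Neat1*-KO and 33.4, 34.5 and 36.5 CPM in *Neat1*-WT libraries, which were interleaved. The log2 fold change was -0.011 (SE 0.082, 95% interval -0.19 to 0.17, unadjusted p = 0.891, adjusted p = 0.997, exact permutation p = 0.857), and its sign turned when *Neat1*-KO replicate 1, *Neat1*-KO replicate 4 or *Neat1*-WT replicate 4 was left out, or under the replicate block.

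**Figure D2:**
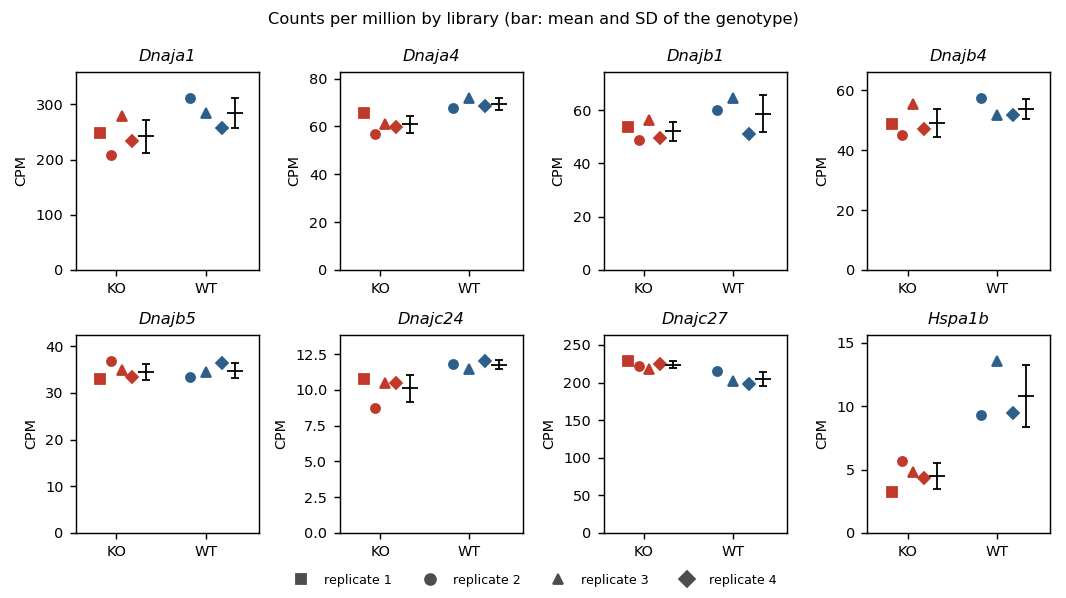
CPM in each library (marker shape, replicate number) for the 5 heat-inducible DNAJ genes, the other DNAJ genes without overlap of the genotypes (*Dnajc24* and *Dnajc27*), and *Hspa1b*; horizontal bars are the mean and whiskers the SD of 4 *Neat1*-KO (red) and 3 *Neat1*-WT (blue) libraries, and every axis starts at 0. The *Neat1*-KO points of *Dnaja4*, *Dnajc24* and *Hspa1b* all lie below the *Neat1*-WT points, those of *Dnajc27* above, and those of *Dnajb5* among them.

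Among the 7 libraries, the heat-inducible genes were lowest in *Neat1*-KO replicate 2 for 4 of 5 genes, and highest in *Neat1*-WT replicate 2 for *Dnaja1* and *Dnajb4* and in *Neat1*-WT replicate 3 for *Dnaja4* and *Dnajb1*. The exception was *Dnajb5*, lowest in *Neat1*-KO replicate 1 and highest in *Neat1*-KO replicate 2. Taken as the deviation of a gene's log2 CPM from its mean over the libraries, the median of the 5 genes was -0.057, -0.18, 0.041 and -0.11 in *Neat1*-KO replicates 1 to 4 and 0.14, 0.13 and 0.026 in *Neat1*-WT replicates 2 to 4. *Neat1*-KO replicate 3 thus lay above *Neat1*-WT replicate 4, and the genotypes overlapped on this scale. For the other 30 genes the medians ran only from -0.033 to 0.043, with the lowest in *Neat1*-WT replicate 4 and the highest in *Neat1*-KO replicate 1. Motor neuron markers were lower in *Neat1*-KO mice as well, with all 5 below 0 (48.2% of all genes tested) and a median log2 fold change of -0.30. Of them, 2 were lower at an unadjusted p under 0.05 (2.4% of all genes tested). All 4 oligodendrocyte markers were also below 0 (median -0.14), all 4 microglial markers above it (median 0.12) and all 4 meningeal markers above it (median 0.29, summed 69.35 to 181.9 CPM in *Neat1*-KO and 62.69 to 187.1 CPM in *Neat1*-WT libraries). The part of the cell type markers in the levels of the heat-inducible genes was not tested.

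**Figure D3:**
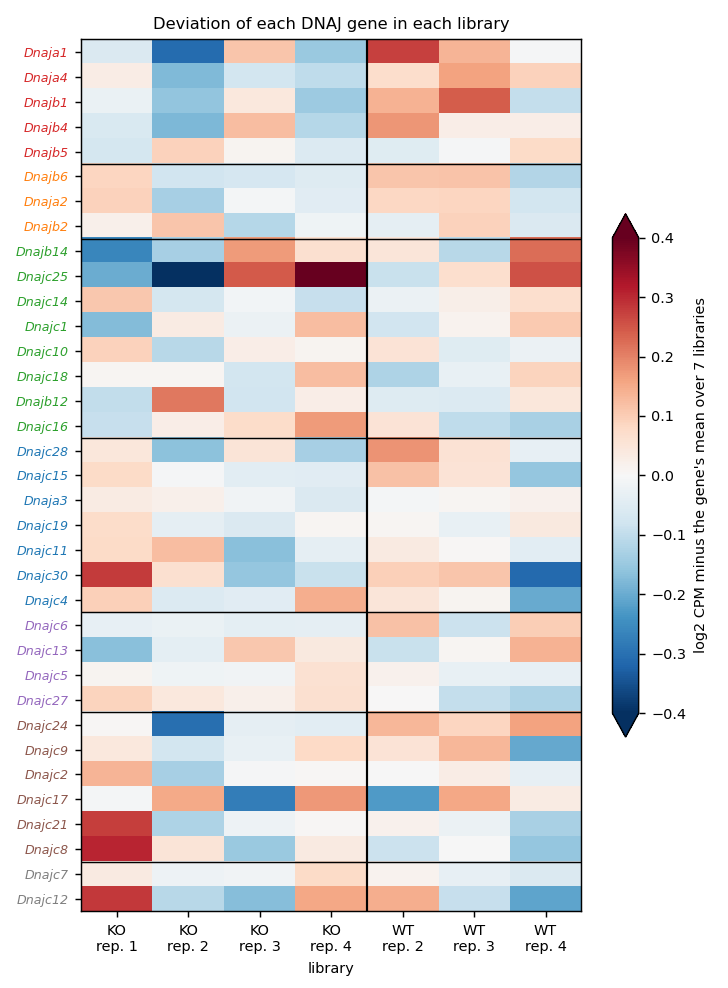
Deviation of each DNAJ gene's log2 CPM from its own mean over the 7 libraries (colour, saturated at 0.4 on either side), for the 4 *Neat1*-KO libraries left and the 3 *Neat1*-WT libraries right of the black line, with genes grouped by heat inducibility and site of action. In the top block of 5 heat-inducible genes, *Neat1*-KO replicate 2 is below 0 (blue) and the *Neat1*-WT libraries 2 and 3 are above it (red) for all but *Dnajb5*.

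HSF1 binds the heat shock element, an array of short units read as GAA and TTC in turn with 2 bases between them. RefSeq promoter windows (GRCm38.p6, 250 bases before to 50 after a transcription start) were searched on both strands for 3 such units and, more loosely, for 2. Windows were found for 29 of the 36 genes, 42 windows in all. Arrays of 3 units were present in 0.603% of all 32851 windows and arrays of 2 in 15.056%, where a match to 3 units also counts as 2. Among the DNAJ genes, 2 units were present in 6 of 29 genes (20.7%, against 17.0% of all genes), namely *Dnaja1*, *Dnaja4*, *Dnajb4*, *Dnajb6*, *Dnajc10* and *Dnajc27*. The 3 units were present in *Dnajb6* alone (3.4%, against 0.662% of all genes), which was not on the heat-inducible list. Of the 5 heat-inducible genes 3 held 2 units (60.0%) and none held 3. The windows with a match in the heat-inducible genes and the first of both overlapping windows of *Dnajb6* are shown 5′ to 3′ with the GAA and TTC units in capitals, beside the first window of *Dnajb1*, which has no match in these letters. The matches begin 124 bases before the start in *Dnaja1*, 90 and 52 bases before it in *Dnaja4*, 14 bases before it in *Dnajb4* and 46 bases before it in *Dnajb6*.
*Dnaja1* (chr4:40722218-40722517, plus strand): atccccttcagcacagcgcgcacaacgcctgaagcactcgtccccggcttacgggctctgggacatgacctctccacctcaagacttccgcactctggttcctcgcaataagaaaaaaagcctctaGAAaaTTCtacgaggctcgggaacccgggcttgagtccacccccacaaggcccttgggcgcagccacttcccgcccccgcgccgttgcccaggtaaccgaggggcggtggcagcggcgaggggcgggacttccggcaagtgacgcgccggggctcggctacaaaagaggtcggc
*Dnaja4* (chr9:54699309-54699608, plus strand): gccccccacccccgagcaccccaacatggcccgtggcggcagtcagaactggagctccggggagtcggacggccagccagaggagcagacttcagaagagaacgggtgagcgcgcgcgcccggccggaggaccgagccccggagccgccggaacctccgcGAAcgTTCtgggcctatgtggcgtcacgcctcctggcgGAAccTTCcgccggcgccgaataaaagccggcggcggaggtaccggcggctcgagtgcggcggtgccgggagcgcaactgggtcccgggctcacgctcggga
*Dnajb4* (chr3:152193796-152194095, minus strand): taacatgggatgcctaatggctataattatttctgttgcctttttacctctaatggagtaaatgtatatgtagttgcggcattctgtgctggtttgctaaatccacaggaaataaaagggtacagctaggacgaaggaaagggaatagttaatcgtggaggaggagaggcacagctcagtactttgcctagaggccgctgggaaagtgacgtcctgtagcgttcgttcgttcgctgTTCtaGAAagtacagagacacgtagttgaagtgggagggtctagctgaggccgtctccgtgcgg
*Dnajb6* (chr5:29735648-29735947, plus strand): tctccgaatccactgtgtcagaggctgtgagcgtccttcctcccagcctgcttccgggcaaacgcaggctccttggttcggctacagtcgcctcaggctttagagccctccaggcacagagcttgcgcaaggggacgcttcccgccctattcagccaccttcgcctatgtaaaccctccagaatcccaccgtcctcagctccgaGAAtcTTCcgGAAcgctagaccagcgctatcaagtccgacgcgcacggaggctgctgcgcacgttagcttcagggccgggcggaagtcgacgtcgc
*Dnajb1* (chr8:83607925-83608224, plus strand): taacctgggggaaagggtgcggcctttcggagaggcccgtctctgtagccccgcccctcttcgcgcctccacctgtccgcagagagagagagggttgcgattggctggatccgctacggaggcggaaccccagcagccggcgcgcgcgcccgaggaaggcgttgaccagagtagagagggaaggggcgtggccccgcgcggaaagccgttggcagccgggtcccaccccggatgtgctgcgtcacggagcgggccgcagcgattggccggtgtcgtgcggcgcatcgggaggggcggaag

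The 6 genes with a match differed in the direction of their log2 fold changes. *Dnaja1*, *Dnaja4*, *Dnajb4* and *Dnajb6* were at -0.23, -0.19, -0.13 and -0.066, while *Dnajc10* and *Dnajc27* were at 0.010 and 0.13. *Dnajb1* and *Dnajb5*, the heat-inducible genes without a match, were at -0.17 and -0.011. Of the heat-induced genes outside the family, 9 of 12 genes with a window held 2 units (75.0%, against 17.0% of all genes). Among these 12, 4 held 3 units (33.3%, against 0.662%). A match is a description of letters, and binding was not measured.

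The other cytosolic and nuclear genes of class A and B were *Dnaja2*, *Dnajb2* and *Dnajb6*, and all 3 had a log2 fold change at or below 0 (median -0.055). *Dnajb6* (ENSMUSG00000029131, mm10 chr5:29735688-29818134, plus strand), which holds back the aggregation of polyglutamine proteins, had the lowest p of them. It was counted at 102, 91.3, 91.8 and 92.9 CPM in *Neat1*-KO and 104, 104 and 88.7 CPM in *Neat1*-WT libraries. *Neat1*-WT replicates 2 and 3 and *Neat1*-KO replicate 1 were high, the other libraries low, and the genotypes overlapped (log2 fold change -0.066, SE 0.081, unadjusted p = 0.428). Leaving out *Neat1*-WT replicate 4 gave -0.14 and leaving out *Neat1*-WT replicate 3 gave -0.028. *Dnajb6* has 7 processed pseudogenes of at least 90% identity, the most counted being *Gm6395* with 53 to 118 counts beside its own 1739 to 2435. *Dnaja2*, a constitutive cytosolic partner of HSC70, stood at 152, 130.4, 142 and 138 CPM in *Neat1*-KO and 151, 152 and 136 CPM in *Neat1*-WT libraries, with overlap. *Dnajb2*, which is abundant in neurons and binds ubiquitin chains, had a log2 fold change of -0.00012 (95% interval -0.16 to 0.16).

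Of the 8 genes of the ER, 4 were below 0 and 4 above (median -0.0049), and no gene had separate libraries or a p under 0.05. The lowest p was that of *Dnajc16* (ENSMUSG00000040697, mm10 chr4:141760189-141790931, minus strand), an ER membrane protein. It was counted at 51.5, 56.0, 57.8 and 61.8 CPM in *Neat1*-KO and 57.0, 51.1 and 50.2 CPM in *Neat1*-WT libraries. *Neat1*-KO replicate 4 was highest and *Neat1*-WT replicate 4 lowest, and the genotypes overlapped (log2 fold change 0.10, SE 0.087, unadjusted p = 0.249). Leaving out *Neat1*-KO replicate 4 gave 0.061 and leaving out *Neat1*-WT replicate 2 gave 0.16. *Dnajc10*, the ER disulfide reductase ERdj5, had a log2 fold change of 0.010, and the membrane cochaperones *Dnajb12* and *Dnajb14* had 0.042 and -0.090. *Dnajc14* shares 17.0% of its exon bases with *Ormdl2* on the opposite strand. *Dnajc1* was counted at 19.4, 22.5, 21.6 and 23.9 CPM in *Neat1*-KO and 20.8, 22.1 and 23.6 CPM in *Neat1*-WT libraries, with overlap. The log2 fold changes of *Dnajc1*, *Dnajc14*, *Dnajc18* and *Dnajc25* were -0.020, -0.038, 0.037 and -0.077.

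The 7 mitochondrial genes were likewise spread about 0, with 4 below (median -0.0091). *Dnajc28* (ENSMUSG00000039763, mm10 chr16:91614254-91619026, minus strand) had the lowest p and was counted at 13.6, 11.7, 13.6 and 11.98 CPM in *Neat1*-KO and 14.9, 13.7 and 12.8 CPM in *Neat1*-WT libraries. *Neat1*-KO replicates 1 and 3 were within the *Neat1*-WT range and replicates 2 and 4 below it (log2 fold change -0.12, SE 0.11, unadjusted p = 0.306), and without *Neat1*-WT replicate 2 the fold change was -0.062. *Dnaja3*, the class A cochaperone of the mitochondrial HSP70, was even between libraries, from 64.2 to 68.4 CPM in *Neat1*-KO and 66.4 to 67.6 CPM in *Neat1*-WT mice. *Dnajc15* and *Dnajc19*, which regulate the import motor of the inner membrane, had log2 fold changes of -0.015 and -0.0091. *Dnajc11*, *Dnajc30* and *Dnajc4* had 0.0038, 0.054 and 0.082. *Dnajc4* is the only one of the 36 genes on the chromosome of *Neat1*, 1142433 bp from it, and *Dnajc30* shares 26.2% of its exon bases with *Bud23* on the opposite strand.

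The 4 genes of vesicles and endosomes had 2 values below 0 and 2 above (median -0.0029). *Dnajc27* (ENSMUSG00000020657, mm10 chr12:4082583-4110606, plus strand), a Rab-like GTPase with a J domain, was the only DNAJ gene with all *Neat1*-KO libraries above all *Neat1*-WT libraries, 1 of 35 where 2.91% of all genes tested had this pattern. It stood at 229, 222, 219 and 225 CPM in *Neat1*-KO and 216, 202 and 197 CPM in *Neat1*-WT libraries. The gap between *Neat1*-KO replicate 3 and *Neat1*-WT replicate 2 was small against the spread within *Neat1*-WT. The mean was 224 ± 4.48 CPM (SD, n = 4) against 205 ± 9.56 CPM (SD, n = 3). The fitted log2 fold change was 0.13 (SE 0.064, 95% interval -0.013 to 0.27). The unadjusted p was 0.0728 and the adjusted p 0.992 in edgeR, and the exact permutation test gave the smallest p it allows, 0.0286. *Dnajc5*, the cysteine string protein of synaptic vesicles, was at 375, 368, 369 and 388 CPM in *Neat1*-KO and 376, 364 and 364 CPM in *Neat1*-WT libraries, with overlap (log2 fold change 0.027, 95% interval -0.10 to 0.16). *Dnajc6*, the neuronal auxilin that uncoats clathrin vesicles, was between 204 and 205 CPM in *Neat1*-KO and between 197 and 227 CPM in *Neat1*-WT libraries (log2 fold change -0.079). *Dnajc13*, an endosomal clathrin regulator, had a log2 fold change of -0.032.

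Among the 6 genes of the nucleus, the ribosome and translation, 5 were above 0 (median 0.016) and *Dnajc24* was below it. *Dnajc24* (ENSMUSG00000027166, mm10 chr2:105966709-106003549, minus strand) acts in the synthesis of diphthamide on elongation factor 2. It was counted at 10.8, 8.71, 10.5 and 10.5 CPM in *Neat1*-KO and 11.8, 11.4 and 12.03 CPM in *Neat1*-WT libraries. All *Neat1*-KO libraries lay below all *Neat1*-WT libraries, with *Neat1*-KO replicate 2 far below the others. *Dnajc24* and *Dnaja4* were the 2 of 35 DNAJ genes with this pattern, which 2.57% of all genes tested had. The log2 fold change of *Dnajc24* was -0.22 (SE 0.12, 95% interval -0.48 to 0.038, unadjusted p = 0.0885, adjusted p = 0.992, exact permutation p = 0.0571). *Dnajc8*, a splicing factor, had the highest fitted value of the family with all 7 libraries. It stood at 108, 90.5, 78.7 and 89.5 CPM in *Neat1*-KO and 82.3, 87.2 and 78.4 CPM in *Neat1*-WT libraries, with *Neat1*-KO replicate 1 above the rest and *Neat1*-KO replicate 3 among the lowest (log2 fold change 0.15, SE 0.10, unadjusted p = 0.156). Without *Neat1*-KO replicate 1 its value was 0.059. With the replicate block, in which that library has no partner, it was 0.060. *Dnajc21*, needed for the maturation of the large ribosomal subunit, had 0.087, the splicing gene *Dnajc17* 0.029, the ribosome-associated *Dnajc2* 0.0038 and the histone chaperone *Dnajc9* 0.0035.

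The remaining class C genes are *Dnajc7*, *Dnajc12* and *Dnajc22*. *Dnajc12* (ENSMUSG00000036764, mm10 chr10:63382443-63410576, plus strand), a cochaperone of the aromatic amino acid hydroxylases, was counted at 20.5, 15.6, 14.9 and 18.7 CPM in *Neat1*-KO and 18.6, 15.8 and 14.5 CPM in *Neat1*-WT libraries. The ranges of the genotypes overlapped (log2 fold change 0.094, SE 0.13, unadjusted p = 0.492), and the value lay between 0.0067 (without *Neat1*-KO replicate 1) and 0.20 (without *Neat1*-WT replicate 2) with a library left out. *Dnajc7*, whose tetratricopeptide repeats bind both HSP70 and HSP90, had a log2 fold change of 0.045 (95% interval -0.10 to 0.19). *Dnajc22* had between 0 and 8 counts per library and did not pass the filter on low counts. It stood at 0.0514, 0.161, 0.186 and 0.153 CPM in *Neat1*-KO libraries, at 0.362 and 0.233 CPM in *Neat1*-WT replicates 2 and 3, and at 0 in *Neat1*-WT replicate 4.

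The level of the DNAJ genes, compared as mean CPM per kb of exon over the 7 libraries, differed widely within the family. The length was the union of all annotated exons of a gene, not that of the transcripts expressed, so the order depends on it. *Dnaja1*, with 8629 bp and a median of 258 CPM, ranked below *Dnaja2*, with 2975 bp and a median of 142 CPM. *Dnajc5* was highest at 53.5 ± 1.25 (SD, n = 7), followed by *Dnaja2* at 48.1 ± 2.95 and *Dnajc27* at 42.4 ± 2.33. At the other end were *Dnajc1* at 1.89 ± 0.134, *Dnajc25* at 0.645 ± 0.160 and *Dnajc22* at 0.0885 ± 0.0641 CPM per kb. With *Dnajb2* and *Dnajc6* next, the 5 highest were 3 genes of vesicles and endosomes and 2 constitutive cytosolic cochaperones. Of the 35 neighbouring pairs in this order, 27 overlapped in their range over the libraries. The pairs that did not were *Dnajc5* over *Dnaja2*, *Dnajc7* over *Dnajc18*, *Dnajc18* over *Dnaja4*, *Dnajc21* over *Dnajc14*, *Dnajc24* over *Dnajb5*, *Dnajc28* over *Dnajc1*, *Dnajc1* over *Dnajc25* and *Dnajc25* over *Dnajc22*. Among the heat-inducible genes, *Dnaja1* was at 30.2 ± 4.00, *Dnaja4* at 17.98 ± 1.50, *Dnajb1* at 17.1 ± 1.83, *Dnajb5* at 5.83 ± 0.261 and *Dnajb4* at 5.83 ± 0.512 CPM per kb. In *Neat1*-WT mice, the constitutive HSP70 gene *Hspa8* was at 435 ± 83.0 and the inducible *Hspa1a* at 3.59 ± 0.418 CPM per kb (SD, n = 3). The level of *Hspa1a* may be understated, because reads that fit *Hspa1b* as well would not have been counted.

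**Figure D4:**
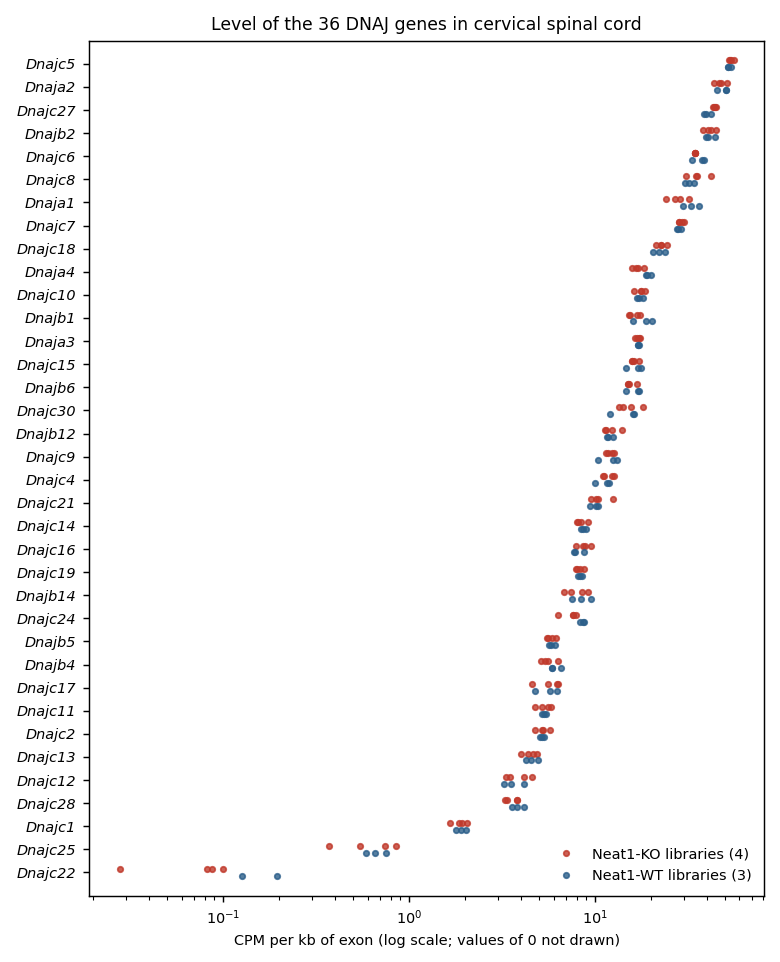
Level of the 36 DNAJ genes as CPM per kb of exon (log axis), with 1 point per library, *Neat1*-KO in red and *Neat1*-WT in blue, in the order of the mean over the libraries; a library at 0 is not drawn. *Dnajc5* is highest at 53.5 and *Dnajc22* lowest at 0.0885, and the colours lie over each other in nearly all genes.

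The partners of the DNAJ proteins were examined in the same fit. Of 25 genes of the HSP70 system, 19 had a log2 fold change below 0, against 48.2% of all genes tested, with a median of -0.083. At an unadjusted p under 0.05, 4 were lower (2.4% of all genes), 5 had separate libraries, all lower (2.57%), and 1, *Hspa1b*, passed the threshold (0.0325%). The 4 were *Hspa1a*, *Hspa1b*, *Hsph1* and *Hsp90aa1*. With *Hspa8*, *Hsp90ab1*, *Bag3* and *Stip1*, they are also on the list of heat-induced genes below, so the lists are not separate. *Hspa1b*, an inducible HSP70, was at 3.19, 5.68, 4.78 and 4.35 CPM in *Neat1*-KO and 9.28, 13.6 and 9.48 CPM in *Neat1*-WT libraries, all *Neat1*-KO below all *Neat1*-WT, and fell by 1.25 on the log2 scale (SE 0.20, adjusted p = 0.0888). The call of *Hspa1b* was lost when any of 4 libraries was left out, with an adjusted p of 0.157 and 0.311 without *Neat1*-KO replicates 3 and 4 in turn, and of 0.170 and 0.926 without *Neat1*-WT replicates 2 and 3 in turn. With any library left out the log2 fold change lay between -1.39 and -1.06. *Hspa1a*, nearly identical to it in sequence, so that reads fitting both would have been left out of the unique counts, was at 6.52, 7.98, 6.40 and 6.14 CPM in *Neat1*-KO and 11.2, 11.5 and 9.23 CPM in *Neat1*-WT libraries, also without overlap, with a log2 fold change of -0.65 (SE 0.14, adjusted p = 0.485). *Hsph1*, a nucleotide exchange factor of HSP70, was at 288, 261, 305 and 265 CPM in *Neat1*-KO and 365, 358 and 294 CPM in *Neat1*-WT libraries, with *Neat1*-WT replicate 4 among the *Neat1*-KO libraries (log2 fold change -0.28, SE 0.087, unadjusted p = 0.00721). *Hsp90aa1*, the inducible cytosolic HSP90, was at 1573, 1303, 1526 and 1405 CPM and 1755, 1671 and 1529 CPM in the same order, with *Neat1*-KO replicate 1 reaching the *Neat1*-WT range (log2 fold change -0.19, SE 0.079, unadjusted p = 0.0350). *Hspa8*, the main HSP70 of unstressed cells, was at 1763, 1827, 2019 and 1839 CPM in *Neat1*-KO and 2276, 1743 and 1598 CPM in *Neat1*-WT libraries, with *Neat1*-WT replicate 2 highest and *Neat1*-WT replicate 4 lowest, and its log2 fold change was -0.0081 (95% interval -0.23 to 0.22). Without *Neat1*-WT replicate 2 the value of *Hspa8* was 0.16.

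Of 16 heat-induced genes outside the DNAJ family, of which some are also HSP70 partners, all 16 had a log2 fold change below 0 (median -0.17), where 48.2% of all genes tested did. At an unadjusted p under 0.05, 7 were lower (2.4% of all genes), and 2 passed the threshold (0.0325%), *Hspa1b* and *Hspb1*. *Hspb1*, a small heat shock protein, was at 28.7, 30.8, 31.6 and 28.3 CPM in *Neat1*-KO and 45.3, 53.0 and 40.7 CPM in *Neat1*-WT libraries, without overlap, with a log2 fold change of -0.63 (SE 0.10, adjusted p = 0.0750). Its call was lost in the same way, with an adjusted p of 0.176 and 0.311 without *Neat1*-KO replicates 2 and 4 in turn, and of 0.405 and 0.663 without *Neat1*-WT replicates 2 and 3 in turn. The HSP90 cochaperone *Chordc1* was at 76.1, 57.0, 85.6 and 63.4 CPM in *Neat1*-KO and 103, 95.6 and 84.4 CPM in *Neat1*-WT libraries, where *Neat1*-KO replicate 3 just passed *Neat1*-WT replicate 4 (log2 fold change -0.42, SE 0.13, unadjusted p = 0.00531). The small heat shock protein *Cryab* was at 242, 268, 242 and 248 CPM in *Neat1*-KO and 271, 309 and 284 CPM in *Neat1*-WT libraries, without overlap (log2 fold change -0.20, SE 0.071, unadjusted p = 0.0133). Without *Hspa1a*, *Hspa1b* and *Hspb1*, the other 13 were below 0 with a median of -0.14, near the -0.17 of the 5 heat-inducible DNAJ genes. Earlier results of these same libraries were known when this list was made, so that it is not independent evidence.

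Of 13 other J-domain genes, 9 could be tested, with 6 below 0 (median -0.064, against 48.2% of all genes below 0). *Dnajb11*, the cochaperone of the ER HSP70 BiP, was at 53.2, 53.6, 51.9 and 48.1 CPM in *Neat1*-KO and 60.2, 61.9 and 53.7 CPM in *Neat1*-WT libraries, without overlap, though *Neat1*-KO replicate 2 and *Neat1*-WT replicate 4 nearly met. Its log2 fold change was -0.18 (SE 0.081, unadjusted p = 0.0455, adjusted p = 0.992, exact permutation p = 0.0286). It was the only one of the 9 with an unadjusted p under 0.05, where 2.4% of all genes were lower at that level.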

How the data were processed

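RNA of 7 cervical spinal cords was made into directional poly(A) libraries. The authors trimmed the reads with Trimmomatic 0.38, aligned them to mm10 with HISAT2 2.1.0 and counted uniquely mapped reads with featureCounts 1.6.3 (tools and build per the submitters' processing notes), and deposited raw counts per gene without normalization. The annotation release and the strand setting of the counting are not given in the sources used here. Libraries were assigned to a genotype by their labels.

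GENCODE M21 named 55227 of 55487 genes. The other 260 held 0.00446% of the counts. In edgeR 4.0.16 (R 4.3.3), genes were filtered by filterByExpr, scaled by TMM (factors 0.991 to 1.008) and compared with the quasi-likelihood F-test, with Benjamini-Hochberg adjustment over 18449 genes. Calls needed an adjusted p below 0.1 together with a log2 fold change beyond 0.58 in either direction, as in the study. The common biological coefficient of variation was 0.1275, and total counts of 19661878 to 26031517 per library set the precision. CPM are the counts scaled to the TMM library size. The exact permutation test over 35 splits was two-sided. Tests were checked on simulated data at an adjusted p below 0.1. There edgeR recovered 93 of 100 genes with a true log2 change of 1 and 49 of 100 with a change of 0.5. The fold threshold was not applied there, and edgeR called 14 unchanged genes. More genes were changed in the simulation than were called in the data, which makes an adjusted p below 0.1 easier to reach. The shares recovered therefore do not give the recovery in the data, which may be lower. Smaller changes were not simulated. Copies were sought by BLAST 2.17.0 (at least 90% identity over at least 50% of the copy and 200 bp). Copies were found for 7 members, and 14 members shared exon bases with another gene, 3 of them over 10%.

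The members and lists were chosen with earlier results of these data known. Named with values in every library were the 5 heat-inducible members, members with an unadjusted p under 0.05 or separate libraries, the member with the lowest p at each site, the 3 highest and 3 lowest per kb, *Hspa1a*, *Hspa1b*, *Hspa8*, *Hsph1*, and listed genes with an unadjusted p under 0.05. *Dnajc8* was added after its value was seen, and *Hspb1*, *Chordc1* and *Cryab* came from the list of heat-induced genes. Other settings tried were upper-quartile factors, median-of-ratios factors, no filter, at least 1 CPM in 3 libraries, the DESeq2 1.42.0 Wald test, limma-voom (limma 3.58.1), *Xist* as a covariate, the replicate number as a block, leaving out each library, an adjusted p under 0.05 and no minimum of fold change. Figures were drawn with matplotlib 3.10.9.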

Additional observations from a re-analysis of the deposited data

Results flagged for a closer look

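Within the 4 *Neat1*-KO libraries, the gap of the highest or lowest library to its neighbour, as a share of the whole range, passed the 95% critical value of Dixon's test for 2 of 35 DNAJ genes, where 1.75 would be passed by chance. For *Dnajb6* the share was 0.8501, with replicate 1 at 102 CPM above the other libraries at 91.3 to 92.9 CPM. For *Dnajc24* it was 0.8375, with replicate 2 at 8.71 CPM below the others at 10.5 to 10.8 CPM.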

How the results depend on the processing

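No DNAJ gene was called under any of 17 alternatives. The genes called over the whole table were 6, and 124 without a filter, 27 by DESeq2, 39 with the replicate block and 3 to 31 with a library left out. The DNAJ genes at an unadjusted p under 0.05 were 2, and 1 with *Xist* as a covariate and 0 to 4 with a library left out. Between 17 and 23 of the DNAJ genes were below 0 in 15 alternatives, and the median of the heat-inducible genes lay between -0.21 and -0.15. The median of class B was -0.020 with the replicate block and -0.058 to -0.024 with a library left out. *Dnajb5*, between -0.046 and 0.021 with a library left out, turned to 0.0096 with the block, 0.0075 without *Neat1*-KO replicate 1, 0.0050 without *Neat1*-KO replicate 4 and 0.021 without *Neat1*-WT replicate 4. *Dnaja1*, *Dnaja4*, *Dnajb1*, *Dnajb4*, *Dnajb6*, *Dnajc8*, *Dnajc12*, *Dnajc16*, *Dnajc24*, *Dnajc27* and *Dnajc28* kept their sign in all 15, and the other DNAJ genes were not followed singly. Applied after seeing the data to genes outside the family, the same settings turned *Hspa8* to 0.0058 by limma-voom, 0.033 with the block, 0.031 with *Xist* and between -0.11 and 0.16 with a library left out (0.014 without *Neat1*-KO replicate 1, 0.00053 without *Neat1*-KO replicate 2, 0.16 without *Neat1*-WT replicate 2). Of the 16 heat-induced genes, 15 or 16 were below 0. These settings ended the call of *Hspa1b* in 6 and of *Hspb1* in 5 of 15 settings, and *Hspa1a* was called without a filter and by DESeq2. With at most 4 *Xist* counts in a library, that covariate holds counting noise and adjusts for no difference of sex. The cause of these shifts was not tested.

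The replicate numbers are not stated to pair mice. The correlations of same-numbered deviations were -0.375, -0.368 and 0.029 over 11590 genes. Pairs of libraries with different numbers ran from -0.513 to 0.395, so these correlations cannot decide whether mice were paired. The block fit called no DNAJ gene. In it *Neat1*-KO replicate 1 has no partner and so does not enter the fold changes. The block is therefore not a separate check from the fit without that library. The differences of the heat-inducible genes, down to -0.23, lay below the fold threshold of 0.58, with a median SE of 0.089 over the family.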
